A study of Mus musculus with 3 samples.

Results

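Alpha globin transcripts, with no beta globin transcript, were found in 592 hormone-responsive luminal cells of the mouse mammary gland. These were out of 2824 hormone-responsive cells and 26320 cells kept in all. A cell was taken as hormone-responsive when its molecules of Prlr, Areg, Pgr, Esr1 and Cited1 summed to at least 5 and to at least 3 times the sum of 4 basal genes (Krt5, Krt14, Krt17, Acta2) and of 4 luminal progenitor genes (Csn3, Elf5, Kit, Aldh1a3). A member then held at least 1 molecule of Hba-a1 or Hba-a2, the adult alpha globin genes, and none of Hbb-bs or Hbb-bt, the adult beta globin genes. A molecule here is a unique molecular identifier (UMI), the tag that marks 1 captured transcript in droplet-based sequencing. The members numbered 80, 221 and 291 in libraries 1, 2 and 3. They were compared with the same number of hormone-responsive cells of the same library that held no globin UMI and were matched to them in total UMIs, called matched cells below.

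The 3 libraries form 1 untreated group of epithelial cells from 10-week-old female FVB/NJ mice. Per the labels, the inguinal (number 4) glands of 4 animals were pooled and digested, and live epithelial cells were sorted with antibodies to EpCAM, CD49f, CD31, CD45 and Ter119. Ter119 marks the red cell lineage. The labels repeat 1 description for all libraries and do not say if they share a pool of mice. All p-values given here therefore reflect differences among the 3 libraries that may be of technical origin alone. Neither the labels nor the design text name a stage of the oestrous cycle. The tables held 6691, 9034 and 11120 barcodes and 18584156 to 30984706 UMIs, and any pair of them shared 77 to 146 barcode sequences.

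Haemoglobin is a tetramer of alpha and beta globin chains that carries oxygen on haem, and red cell precursors make both chains together with the haem itself. Alas2 is the red cell form of the enzyme that starts haem synthesis. Single globin chains have also been described outside blood, where their roles are less settled. Hormone-responsive luminal cells carry the receptors for oestrogen, progesterone and prolactin and signal to their neighbours through secreted factors, among them RANKL (the product of Tnfsf11), amphiregulin (Areg) and Wnt4.

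The 2 alpha globin genes lie on chromosome 11 of GRCm38 (mm10), Hba-a1 at chr11:32283511-32284465 and Hba-a2 at chr11:32296489-32297298, both on the plus strand in the GENCODE annotation. Beta globin Hbb-bs lies on another chromosome, at chr7:103826534-103828096 on the minus strand, and Tnfsf11 at chr14:78277445-78308043 on the minus strand. The 250 bases before the RefSeq start (GRCm38.p6) are shown for 3 genes whose transcripts separate the members from red cells or from matched cells. They were read from chr11:32283422-32283671 for Hba-a1, chr7:103827929-103828178 for Hbb-bs and chr14:78308044-78308293 for Tnfsf11, in the direction of transcription. Capitals mark every match on either strand to GATAA (bound by GATA factors), CCACCC (bound by Klf factors), the CCAAT box, the TATAA box, AGAACA (a steroid receptor half-site for the progesterone and glucocorticoid receptors) and AGGTCA (an oestrogen receptor half-site).
Hba-a1: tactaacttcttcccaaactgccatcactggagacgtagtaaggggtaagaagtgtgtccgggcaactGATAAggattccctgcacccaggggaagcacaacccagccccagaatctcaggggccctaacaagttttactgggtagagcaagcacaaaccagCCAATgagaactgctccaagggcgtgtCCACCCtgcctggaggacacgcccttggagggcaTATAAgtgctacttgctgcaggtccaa
Hbb-bs: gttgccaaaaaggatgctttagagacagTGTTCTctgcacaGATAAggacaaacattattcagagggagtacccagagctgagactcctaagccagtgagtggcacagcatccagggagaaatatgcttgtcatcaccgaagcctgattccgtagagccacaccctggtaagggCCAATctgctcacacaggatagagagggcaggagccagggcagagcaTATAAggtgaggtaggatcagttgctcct
Tnfsf11: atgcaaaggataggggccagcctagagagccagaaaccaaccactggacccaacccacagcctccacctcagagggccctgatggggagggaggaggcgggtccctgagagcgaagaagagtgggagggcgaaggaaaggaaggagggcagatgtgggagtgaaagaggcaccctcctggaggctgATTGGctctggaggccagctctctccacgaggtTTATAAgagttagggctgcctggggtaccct

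The Hba-a1 window held GATAA and CCACCC with the CCAAT and TATAA boxes, and neither receptor half-site. The window of Hbb-bs held GATAA with the CCAAT and TATAA boxes and, on the opposite strand (TGTTCT), the motif AGAACA, and that of Tnfsf11 held CCAAT on the opposite strand and TATAA on both strands, in overlapping positions. Of 32851 RefSeq windows of the same length, 22.6% held GATAA, 28.1% CCACCC, 33.8% CCAAT, 22.8% TATAA, 16.1% AGAACA and 14% AGGTCA. These are matches of letters and not measured binding. The Hba-a2 window is not printed because it repeats that of Hba-a1 over 247 of 247 aligned bases. The GENCODE transcripts of the 2 copies matched at 537 of 538 aligned bases, and their ends, where these libraries read, at 82 of 82. Reads of the 2 copies can therefore hardly be told apart, so the copies are summed below and their split is uncertain. Whether reads matching both copies were counted or dropped before the UMIs were tallied could not be settled. Summing the copies would not bring back dropped reads. If some were dropped, the alpha globin counts, levels and shares below are too low, and the percentages of beta globin among globin UMIs are too high.

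Alpha globin was found in a far larger share of hormone-responsive cells than of basal or luminal progenitor cells, and its share was nearly the same in every library. It was present in 21.1% of hormone-responsive cells in library 1 (95% exact binomial interval 17.1% to 25.6%), 21.6% in library 2 (19.1% to 24.2%) and 21.0% in library 3 (18.9% to 23.3%). Basal cells, defined by the same kind of rule, held it in 0.714%, 1.08% and 0.384%, and luminal progenitor cells in 0.590%, 1.68% and 0.892%. The means were 21.2% ± 0.288 (SD, n = 3) in hormone-responsive, 0.725% ± 0.347 in basal and 1.05% ± 0.562 in luminal progenitor cells, with no overlap between the hormone-responsive and the other libraries. Intervals and shares here cover counting error only, and since alpha globin chose the members, no test was made of it.

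The order of the classes was the same at equal depth. Hormone-responsive cells had medians of 3302.5 to 3811 UMIs, luminal progenitor cells 2855 to 3738.5 and basal cells 1763 to 2203. With each cell thinned to 2000 UMIs, which left out 533 shallower hormone-responsive cells, the share was 16.8%, 18.1% and 16.5% in the hormone-responsive class. Thinning also left out 800 of 1681, 1891 of 4827 and 2800 of 4431 basal cells in libraries 1, 2 and 3. For luminal progenitor cells the loss was 752 of 3222, 262 of 1608 and 453 of 3251. The thinned means were 17.1% ± 0.849 (SD, n = 3) there, 0.581% ± 0.299 in basal and 0.596% ± 0.395 in luminal progenitor cells. At least 2 alpha globin UMIs were held by 11.9%, 12.3% and 10.1% of hormone-responsive cells and by no more than 0.249% of either other class in any library.

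**Figure D1:**
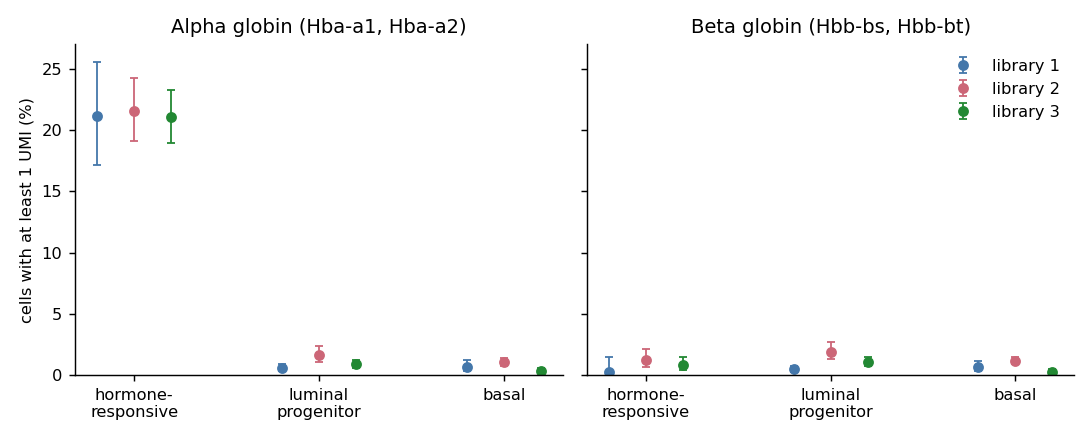
Share of cells with at least 1 alpha globin UMI (left) or beta globin UMI (right), in percent, for 3 cell classes in each library; points are libraries and bars are 95% exact binomial intervals. Alpha globin stands at 21.0% to 21.6% in the hormone-responsive class and at most at 1.68% in the others, while beta globin lies between 0.264% and 1.93% in all 3 classes.

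Beta globin was not most frequent in the hormone-responsive class of any library. A beta globin UMI was present in 0.264%, 1.25% and 0.856% of hormone-responsive cells, against 0.654%, 1.18% and 0.316% of basal and 0.497%, 1.93% and 1.11% of luminal progenitor cells. Among the 600 hormone-responsive cells with alpha globin, before any limit on beta globin, 8 held a beta globin UMI (1.33%, interval 0.577% to 2.61%), and among the 2224 without it 18 did (0.809%, interval 0.480% to 1.28%). Those intervals overlap, but they pool the cells of 3 libraries, and the 2 groups differed in depth (medians of 3879 and 3357 UMIs). An excess of beta globin in the alpha globin cells was therefore not tested. Removing the 8 cells and setting aside 18 with beta globin alone left the 592 members and 2206 cells with neither globin.

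The make-up of the globin UMIs was compared over classes not chosen on alpha globin, with cells of 3 or more beta globin UMIs left out. That limit removed no hormone-responsive cell. In library 2 it kept 4825 of 4827 basal and 1606 of 1608 luminal progenitor cells, and in the other libraries it kept all of them. The 2824 hormone-responsive cells held 1907 alpha and 27 beta globin UMIs, so that beta globin made up 1.40% of their globin (interval 0.922% to 2.03%). By library that value was 0.495%, 1.29% and 1.86%. Globin UMIs of basal cells with under 3 beta globin UMIs were 49.1% beta globin (interval 41.2% to 57.0%), and those of luminal progenitor cells 51.9% (43.8% to 59.9%). In each library the hormone-responsive class lay below the other classes, and the intervals did not overlap. Within the 600 hormone-responsive cells chosen for alpha globin the value was 0.418%, which the choice itself lowers. In 10 droplets chosen for 3 or more beta globin UMIs, which raises it, beta globin made up 43.5%.

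**Figure D2:**
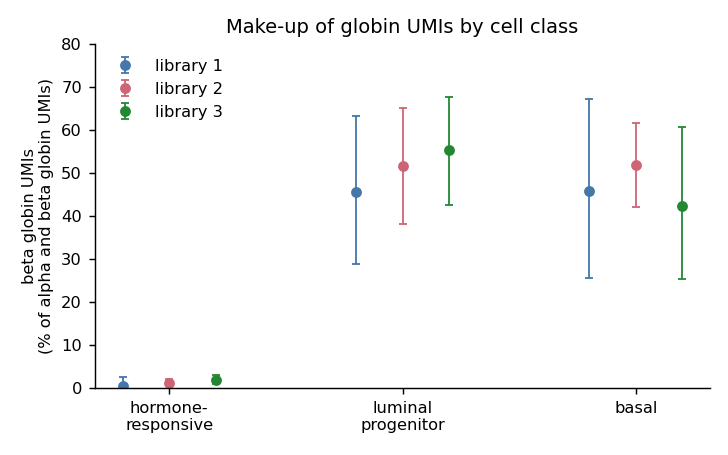
Beta globin UMIs as a percentage of all alpha and beta globin UMIs, for each library, in all hormone-responsive, luminal progenitor and basal cells with under 3 beta globin UMIs; bars are 95% exact binomial intervals. The hormone-responsive class lies between 0.495% and 1.86%, and the other classes at 42.4% or higher.

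Most members held few alpha globin UMIs, and library 2 held the richest cells. A single UMI was present in 281 members, just inside the rule, next to the 2206 hormone-responsive cells with none. Another 130 members held 2 UMIs, 52 held 3 and 129 held 4 or more. The mean per member was 2.51 UMIs in library 1, 4.79 in library 2 and 2.14 in library 3, and the highest cell of each held 16, 39 and 33. Cells with 8 or more numbered 1, 48 and 6, so the library with the highest mean held most of them. The alpha globin level of the members was 645, 1115 and 561 counts scaled to a common library total of UMIs (CPM).

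Alpha globin UMIs were spread unevenly between hormone-responsive cells. With cells thinned to 2000 UMIs, the variance of the alpha globin count was 2.33, 4.81 and 3.69 times its mean in libraries 1, 2 and 3, where independent draws from 1 common level would give equal values. The share of cells with alpha globin was higher in deeper cells, and in library 2 it was 11.5% in cells of up to 2500 UMIs, 20.9% in those of up to 5000 and 37.5% above that. In library 3 the same steps were 11%, 23.9% and 32.3%, and in library 1 they were 15.5%, 23.8% and 24.6%. For that reason the cells compared with the members were matched in depth.

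Matching set members and matched cells at equal depth. Median UMIs other than globin were 3850.5, 4315 and 3694 in members and 3856.5, 4315 and 3694 in matched cells. Median mitochondrial shares were 4.19%, 1.82% and 1.86% against 3.68%, 1.88% and 1.89%. Of the cells with the highest doublet scores, 2, 2 and 12 were members and 3, 11 and 14 were matched cells, fewer members in each library and most clearly in library 2. Median doublet scores in library 2 went the other way, at 0.0209 in members and 0.0144 in matched cells. Both groups had passed the same rule on the genes of the class. Cited1, a transcriptional coregulator, stood at 1403, 1915 and 2008 CPM in members and 1315, 1610 and 2149 in matched cells, and Prlr, the prolactin receptor, at 3113, 2619 and 2872 against 2799, 2849 and 3024. The ligand gene Areg stood at 1338, 1514 and 1140 CPM against 1922, 1616 and 902, and Pgr, the progesterone receptor, at 343, 252 and 196 against 318, 332 and 155, with no common direction over the libraries. Kit, a receptor of luminal progenitor cells that the rule limits, had 1, 11 and 4 UMIs in members and 4, 12 and 20 in matched cells.

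Defining genes of the red cell programme were at or near 0 in the members. Gata1, the master regulator of the lineage, was at 0 UMIs in all members. Klf1, another erythroid regulator, Slc4a1, the anion exchanger of the red cell membrane, and Rhag, a red cell ammonium channel, had 1 UMI each in the 592 members and 0 in the matched cells, and Hemgn had 0 against 1. Of 31 erythroid genes listed, 18 are in the tables, 7 passed the filter on low counts and 0 were called (over all genes tested, 0.109% were called, so a count of 0 in so short a list says little). Their summed level was 298 to 335 CPM in members and 264 to 353 in matched cells. The highest of the tested ones, the mitophagy receptor Bnip3l, stood at 153 ± 23.5 CPM (SD, n = 3) in members and 142 ± 23.0 in matched cells. Among 12 erythroid transcription regulators 4 were tested and 0 called, with Gata1, Tal1, Nfe2, Gfi1b and Gata2 at 0.

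Alas2, listed as a marker of these cells, was rare, and whether it was more frequent with alpha globin was not tested. The members held 17 Alas2 UMIs in 16 cells (1, 1 and 14 cells by library), and the matched cells 12 UMIs in 12 cells (1, 3 and 8). Hormone-responsive cells without beta globin and without an Alas2 UMI contained alpha globin in 21.2%, 21.6% and 20.6% of cells in the 3 libraries. Those with one contained it in 1 of 6, 1 of 13 and 14 of 43 cells, the last being 32.6% (interval 19.1% to 48.5%), and the intervals overlapped in every library. In the class as a whole Alas2 was present in 1.58%, 1.25% and 3.07% of hormone-responsive cells. The shares were 0%, 0.0414% and 0.0451% in basal cells, where 0 of 1681 cells in library 1 allows up to 0.179%, and 0.0310%, 0.560% and 0.523% in luminal progenitor cells. At these depths Alas2 was too low for the test across genes. In library 3 it was present in 2.75% of matched cells and 2.65% of members with 1 alpha globin UMI. Members there with 2 to 3 UMIs held it in 7.62% (8 of 105 cells), and those with 4 or more in 5.71% (2 of 35). Over the same groups, 3, 0, 0 and 1 cells held it in library 2 and 1, 0, 1 and 0 in library 1.

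Genes of haem synthesis and iron handling are given by their values, and counts of 0 in these lists say little beside the 0.109% called over all genes. Of 14 haem synthesis genes 11 were tested and 0 called, with a median log2 fold change of -0.03. Alas1, the housekeeping form of the first enzyme, stood at 58.2, 16.7 and 21.1 CPM in members and 71.4, 23.6 and 27.6 in matched cells. Of 27 genes for iron uptake, storage and export 19 were tested and 0 called, and ferritin heavy chain Fth1 stood at 1125 ± 166 CPM in members and 1060 ± 91.8 in matched cells (SD, n = 3). Lists of hypoxia-induced genes (18 tested), oxidant defence (27), nitric oxide synthesis and signalling (5) and other haem proteins that bind oxygen (4) had 0 called genes each, with medians of 0.03, -0.04, 0.00 and -0.19. Nprl3, the neighbouring gene whose introns hold the alpha globin enhancers, stood at 41.1, 17.8 and 16.5 CPM in members and 27.2, 14.99 and 10.1 in matched cells (log2 fold change 0.50, edgeR adjusted p = 0.886).

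Across all genes, 9 of 8233 tested differed between members and matched cells, which is 0.109% (edgeR quasi-likelihood test on UMIs summed per library, two-sided, library as a block, Benjamini-Hochberg adjusted p below 0.05). The 17 genes of the rule were left out of the test. Higher in members were Tnfsf11, Calca, Sema3c and Fkbp5 (4 genes, 0.0486%), and lower were Dnajb1, Fgb, Klf6, Hspa1a and Hspa1b (5 genes, 0.0607%). Of the 9, 8 had 1 sign in every library, all but Calca, and in 3 (Tnfsf11, Fkbp5 and Dnajb1) the ranges of the 2 groups did not overlap, which held for 6.64% of all genes. Before adjustment, 510 genes had a p below 0.05. DESeq2 called 0 genes, with 69 at an unadjusted p below 0.05, and edgeR without the block called 0. Levels of single genes in the next paragraphs are CPM after TMM scaling unless said otherwise, for libraries 1, 2 and 3 in that order. Summed levels of gene lists, here and above, are CPM without TMM scaling and are not on the same scale.

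Tnfsf11, which encodes the cytokine RANKL that carries the progesterone signal to neighbouring cells, showed the largest difference of the called genes. It stood at 17.1, 449 and 11.9 CPM in members and at 0, 7.50 and 6.43 in matched cells. Members were above matched cells in each library, and library 2 was far above the rest. In UMIs these are 5, 429 and 13 against 0, 7 and 7, and 5, 107 and 13 members held at least 1 UMI against 0, 5 and 6 matched cells. The fitted log2 fold change was 4.82 with a SD of 2.40 between the log2 ratios of the 3 libraries (edgeR adjusted p = 2.33e-06). Without library 2 the gene did not pass the filter on low counts, so nothing was tested.

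Calca, which encodes calcitonin and calcitonin gene-related peptide, rested on library 2 as well. It stood at 0, 2292 and 130 CPM in members and 0, 91.0 and 76.2 in matched cells, so that library 1 held none in either group. The log2 fold change was 3.01 (edgeR adjusted p = 0.00945), and without library 2 it was 0.76 (adjusted p = 0.296). Sema3c, a secreted guidance protein, stood at 6.84, 84.7 and 12.9 CPM in members and 0, 16.1 and 4.59 in matched cells, (log2 fold change 2.21, adjusted p = 0.00545). In UMIs these are 2, 81 and 14 against 0, 15 and 5, so that library 2 held most of them. Without library 2 Sema3c did not pass the filter, and with a second set of matched cells its log2 fold change was 1.60 (adjusted p = 0.373). Fkbp5, a chaperone of steroid receptors that glucocorticoids and progestins induce, stood at 24.0, 76.3 and 23.0 CPM against 20.4, 14.99 and 11.02 (log2 fold change 1.63, adjusted p = 0.0393). In library 1 Fkbp5 differed by a single UMI, 7 against 6, and without library 2 its log2 fold change was 0.81 (adjusted p = 0.997).

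The lower genes differed by smaller steps. The SD of their library ratios ran from 0.123 (Hspa1b) to 0.761 (Klf6), against 0.573 (Sema3c) to 2.48 (Calca) in the higher genes. Dnajb1 and Klf6 fell most in library 1 (log2 ratios -1.76 and -1.85). Dnajb1, a cochaperone of Hsp70, stood at 51.3, 177 and 156 CPM in members and 180, 316 and 252 in matched cells, and the 2 groups did not overlap (log2 fold change -0.90, SD of the library ratios 0.586, edgeR adjusted p = 0.00945). Hspa1a stood at 667, 357 and 375 CPM against 1102, 578 and 503, and Hspa1b at 749, 380 and 405 against 972, 534 and 624. Both encode inducible Hsp70 and are near-identical copies, so how reads divide between them is uncertain (log2 fold changes -0.61 and -0.50, adjusted p = 0.00945 and 0.0393). Klf6, an early-response transcription factor, stood at 89.0, 681 and 983 CPM against 326, 1087 and 1316 (log2 fold change -0.75, adjusted p = 0.0352). Fgb, the fibrinogen beta chain, stood at 20.5, 89.9 and 222 CPM against 47.6, 225 and 314 (log2 fold change -0.87, adjusted p = 0.0352). Without library 2, Dnajb1, Hspa1a, Hspa1b and Klf6 were still called, while Fgb was not (log2 fold change -0.55, adjusted p = 0.275), and without library 3 Hspa1b was not (-0.44, adjusted p = 0.197). With a second set of matched cells, Tnfsf11, Calca, Hspa1a and Hspa1b were called again. The other 5 genes kept their direction and lost the call, with adjusted p = 0.369 for Dnajb1, 0.377 for Klf6, 0.729 for Fgb, 0.344 for Fkbp5 and 0.373 for Sema3c.

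**Figure D3:**
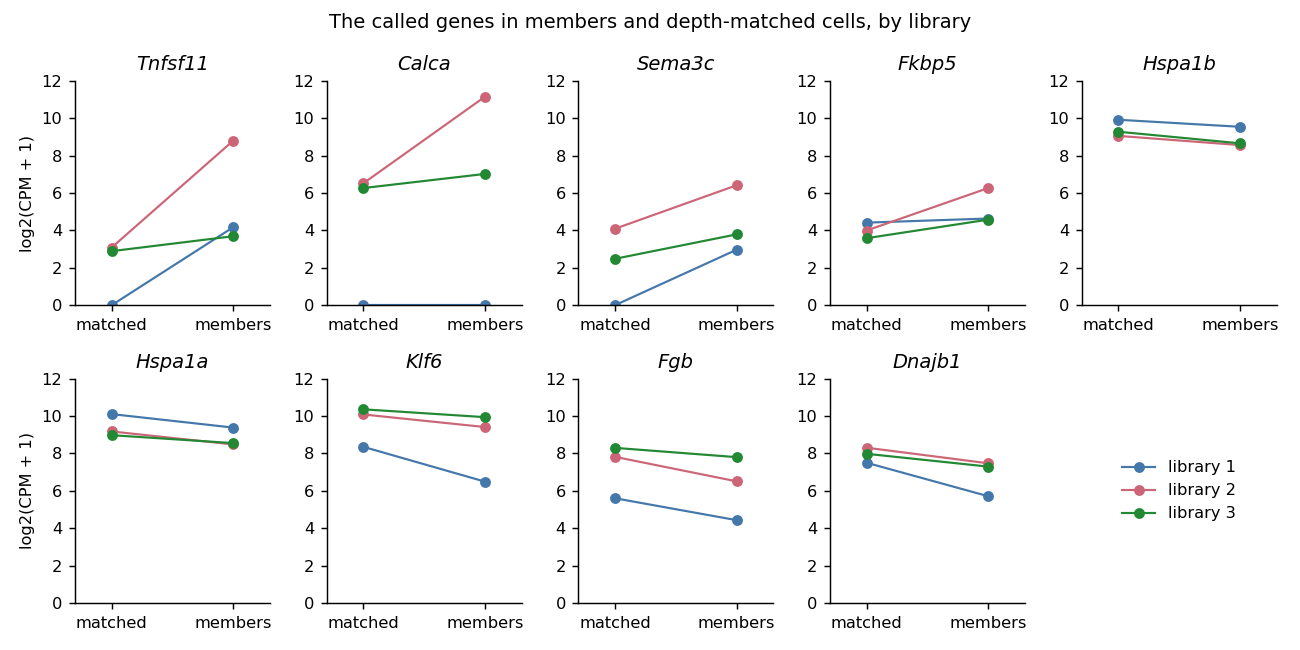
Levels of the 9 called genes, as log2(CPM + 1) after TMM scaling, in matched cells (left) and members (right) of each library, with lines joining the 2 groups of 1 library. Tnfsf11 rises to 449 CPM in library 2 alone and stays at 17.1 or less in the other libraries, while Dnajb1, Hspa1a and Klf6 fall in all 3 libraries.

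Among signals of hormone-responsive cells the called genes were again Tnfsf11 and Calca. Of 20 progesterone and paracrine signals 9 were tested, 2 were higher (Tnfsf11 and Calca) and 0 lower, with a median log2 fold change of -0.05 beside 0.0023 over all genes tested. Over all genes tested, 0.0486% were higher and 0.0607% lower, and the lists of this paragraph share their called genes. The summed level of the 20 signals was 3030, 5023 and 2020 CPM in members and 3416, 2567 and 1916 in matched cells, above matched cells in library 2, close to them in library 3 and below them in library 1. Wnt4, the other well-known progesterone-induced signal of these cells, stood at 322, 646 and 275 CPM against 316, 167 and 266, well apart in library 2 and close in the other libraries (log2 fold change 0.74, edgeR adjusted p = 0.365). Of 23 tested hormone-responsive genes outside the rule, 2 were higher (Tnfsf11 and Calca again) and 0 lower. Foxa1, a pioneer factor of this lineage, stood at 510, 352 and 416 CPM against 517, 409 and 441. Among 12 tested targets of prolactin and Stat5, Tnfsf11 alone was called, and among 9 tested oestrogen-induced genes 0 were, with the secreted glycoprotein Stc2 at 1545 ± 748 CPM in members and 1788 ± 792 in matched cells (SD, n = 3).

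Some stress and early-response genes were lower in members. Of 16 tested heat-shock and stress genes 3 were lower and 0 higher, with a median log2 fold change of -0.12. Over all genes tested, 0.0607% were lower. Of the 3, Hspa1a and Hspa1b are near-identical copies, so their calls are not separate counts. Hspa8, the constitutive Hsp70, was not called, at 1228, 1494 and 1140 CPM in members and 1367, 1355 and 1179 in matched cells. Of 19 tested immediate-early genes 1 was lower (Klf6). In all, 11 of them had an unadjusted p below 0.05 on the lower side, where 510 of all 8233 genes did in either direction. The median of the 19 was -0.30. That median differed between libraries, at -1.19, -0.11 and -0.05. Fos, for example, stood at 482, 4622 and 5019 CPM against 1112, 4732 and 5087. Library 1 thus had the lowest level of these genes and the widest gap. Both groups of genes are known to respond to the digestion of tissue into single cells, and whether that moved with alpha globin was not tested. The median mitochondrial share of members in library 1, 4.19%, was above that of the other libraries and above the 3.68% of its matched cells.

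Markers of the neighbouring classes and of other cells were examined in the same way. Of 15 tested luminal progenitor genes outside the rule 0 were called, although 8 had an unadjusted p below 0.05 on the lower side and the median was -0.41. Over all 8233 genes tested, 0.109% were called and 510 had an unadjusted p below 0.05, in either direction. Wfdc18 stood at 221 ± 86.7 CPM in members and 316 ± 211 in matched cells, and Trf, the iron carrier transferrin, at 193 ± 37.7 and 257 ± 7.79 (SD, n = 3). Of 11 tested basal genes 0 were called, with a median of -0.00. The 14 immune markers summed to 0 to 11.6 CPM in members and 0 to 33.4 in matched cells, with Ptprc, the pan-leukocyte CD45, at 0. The 10 endothelial markers summed to 27.4 to 36.0 CPM against 18.04 to 64.3, with Kdr, Emcn, Tek and Cldn5 at 0, and the platelet genes Pf4 and Ppbp were at 0. Fibroblast markers summed to 308, 97.99 and 153 CPM in members and 138, 174 and 282 in matched cells, higher in members of library 1 and lower in the others. Most of this was Dcn, a matrix proteoglycan, with 96, 74 and 153 UMIs against 43, 146 and 235 (log2 fold change -0.30, edgeR adjusted p = 0.907). Pericyte markers summed to 80.2, 123 and 113 CPM against 45.0, 86.0 and 104, higher in members of each library. The 1 of them that was tested, Notch3, stood at 106 ± 18.6 CPM against 77.7 ± 27.4 (SD, n = 3; log2 fold change 0.38, edgeR adjusted p = 0.66), and Cspg4, Kcnj8 and Abcc9 were at 0. The part of these cells in the results was not tested. The 20 genes of dividing cells summed to 116 to 178 CPM against 133 to 145.

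Levels of several genes followed the number of alpha globin UMIs step by step in library 2. The following values are CPM without TMM scaling, for matched cells and then members with 1, with 2 to 3 and with 4 or more UMIs. Tnfsf11 stood at 7.43, 137, 323 and 833 CPM in library 2, at 6.32, 5.46, 19.1 and 14.04 in library 3 and at 0, 15.9, 25.4 and 0 in library 1. Of the 77 members of library 2 with 4 or more alpha globin UMIs, 85.7% held a Tnfsf11 UMI, against 5.71% of the 35 such members of library 3. Calca rose over the same groups of library 2 from 90.2 to 987, 2944 and 3356 CPM, while in library 3 it stood at 75.0, 127, 132 and 112. The last group of library 1 held only 17 cells. Because depth was not matched between these groups of members, they are described and not tested.

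Other genes followed these steps in library 2; they were chosen after their values were seen. Wnt4 stood at 166, 369, 547 and 988 CPM in library 2, against 262, 246, 323 and 204 in library 3. Zbtb16, a transcription factor that steroid hormones induce, stood at 15.9, 41.2, 112 and 186 in library 2 and at 19.9, 30.9, 19.1 and 35.1 in library 3. In the opposite direction, Ly6d, a surface protein, stood at 1780, 1407, 608 and 270 CPM in library 2 and at 1753, 1331, 1397 and 1355 in library 3. Gpx3, a secreted glutathione peroxidase, stood at 5919, 4713, 3112 and 1842 in library 2 and at 4022, 3382, 4545 and 3264 in library 3. Wfdc12, a whey acidic protein family member too rare for the test, stood at 673 CPM in members and 4.25 in matched cells of library 2, but its 639 UMIs there came from 26 cells.

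The lower genes differed in how they followed alpha globin UMIs. Klf6 stood at 1077, 858, 653 and 527 CPM in library 2 and at 1294, 1022, 952 and 779 in library 3, falling at each step in both. In library 1 it stood at 309, 79.3, 67.8 and 118, with the drop at the first step. Dnajb1 stood at 313, 193, 212 and 147 CPM in library 2, at 248, 191, 115 and 119 in library 3 and at 170, 71.4, 8.48 and 74.0 in library 1. Hspa1a stood at 573, 526, 229 and 252 CPM in library 2 and at 495, 387, 378 and 260 in library 3. Hspa1b stood at 530, 541, 262 and 278 CPM in library 2, where members with 1 UMI were level with matched cells, and at 613, 387, 416 and 379 in library 3. Fgb followed no steady course, at 223, 108, 195 and 23.6 CPM in library 2 and at 309, 209, 213 and 267 in library 3.

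**Figure D4:**
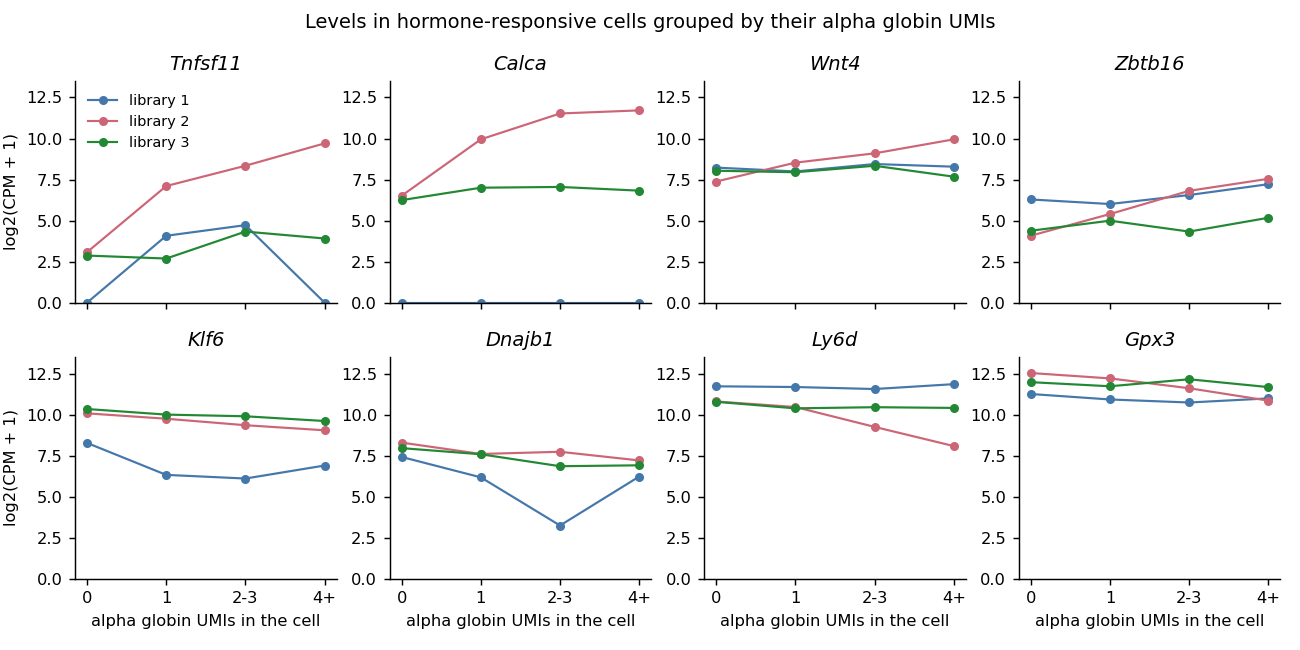
Levels of 8 genes as log2(CPM + 1) in matched cells (0 alpha globin UMIs) and in members with 1, 2 to 3, or 4 or more alpha globin UMIs, 1 line per library. In library 2 Tnfsf11, Calca, Wnt4 and Zbtb16 climb and Ly6d and Gpx3 fall, while library 3 is nearly level for these and Klf6 declines in libraries 2 and 3.

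Seen from the other side, alpha globin was more frequent at equal depth in library 2 cells that held Tnfsf11, and less clearly elsewhere. The cells with both are members already counted above, so these shares restate that difference and are not separate support for it. Of hormone-responsive cells without beta globin, 7, 130 and 31 held a Tnfsf11 UMI in libraries 1, 2 and 3. Alpha globin was present in 5 of the 7 (71.4%, interval 29.0% to 96.3%), 107 of the 130 (82.3%, 74.7% to 88.4%) and 13 of the 31 (41.9%, 24.6% to 60.9%). Among cells without Tnfsf11 it was present in 20.2%, 12.7% and 20.5%. With cells thinned to 2000 UMIs the shares with Tnfsf11 were 66.7%, 84.0% and 20% (2 of 3, 79 of 94 and 4 of 20 cells), against 16.3%, 9.80% and 16.5%. After thinning, the intervals of cells with and without Tnfsf11 were apart in library 2, rested on 3 cells in library 1, and overlapped in library 3, where that of cells with Tnfsf11 was 5.73% to 43.7%. Whether libraries differ in it could not be tested with 1 value per library.

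Calca and Wnt4 divided the libraries likewise. Alpha globin was present in 60.7% of the 178 cells with Calca in library 2 and in 13.3% of those without. In library 3 the shares were 23.5% of 153 cells and 20.6%, with overlapping intervals, and in library 1 they were 0 of 4 cells and 21.4%. For Wnt4 the thinned shares with and without a UMI were 32.7% and 9.63% in library 2, 17.2% and 16.01% in library 3, and 21.6% and 13.0% in library 1. A Tnfsf11 UMI was absent from 75 of 80 members in library 1, 114 of 221 in library 2 and 278 of 291 in library 3.

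**Figure D5:**
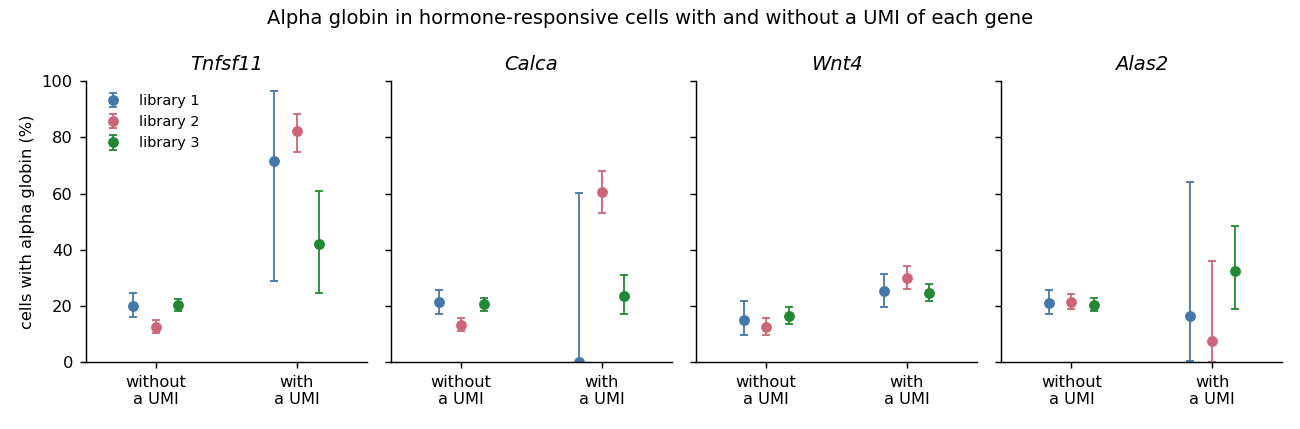
Percentage of hormone-responsive cells without beta globin that held alpha globin, for cells without and with a UMI of Tnfsf11, Calca, Wnt4 or Alas2; points are libraries and bars are 95% exact binomial intervals. The point for cells with Tnfsf11 in library 2 stands at 82.3%, and the Alas2 intervals overlap in every library.

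With every cell that held a Tnfsf11 UMI left out, most of these differences in library 2 were smaller, and that of Calca was still wide. That step also removed most members of library 2 rich in alpha globin. Of members with 4 or more alpha globin UMIs there, 66 held a Tnfsf11 UMI and 11 did not. The smaller differences therefore cannot be told apart from the loss of these members. After members and matched cells were drawn again (75, 114 and 278 of each), Calca stood at 0, 189 and 121 CPM in members and 0, 11.03 and 72.5 in matched cells (log2 fold change 1.46, edgeR adjusted p = 0.192). Wnt4 stood at 224 against 148 CPM in library 2, and Zbtb16 at 17.5 against 15.5. Ly6d and Gpx3 stood at 1596 against 1874 and 5270 against 6016. The lower level of Dnajb1 was still called, at 50.6, 171 and 156 CPM in members and 166, 294 and 245 in matched cells (log2 fold change -0.81, adjusted p = 0.018). It was the only 1 of the 6 main calls tested here that was called again. Hspa1a, Hspa1b, Klf6 and Fgb kept their direction and lost the call. Their log2 fold changes were -0.44, -0.47, -0.47 and -0.32 (edgeR adjusted p = 0.15, 0.0688, 0.212 and 0.81). In all, 3 of 6098 genes were called in this comparison, which was added after the data were seen.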

How the data were processed

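Sorted mouse mammary epithelial cells were sequenced in 3 droplet libraries (10x Genomics 3' v2 chemistry). The authors deposited 1 table of raw UMI counts per library. Per the submitters' processing notes, Cell Ranger 2.1.0 and mm10 were used. Which annotation, cell calling and doublet removal were used was not given in the sources used here. Each table has 19050 gene symbols and whole numbers only. Coordinates come from GENCODE on GRCm38, and upstream sequences from RefSeq.

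Cells entered with 500 or more genes and less than 10% of UMIs mitochondrial. The members, gene lists and comparisons were chosen with earlier results of these data known. Cells are not replicates, so UMIs were summed per library for members and for matched cells (each member paired without reuse to the nearest cell in UMIs other than globin). The sums held 309032 to 1102406 UMIs. They were tested with edgeR 4.0.16 in R 4.3.3 (TMM factors, filterByExpr, quasi-likelihood, library as a block), and fold changes are its fitted values. Library ratios are log2 CPM with a prior count of 2. The test was tried on simulated data with known changes.

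The library pairs the sums, since both groups of a library come from 1 suspension. Deviations from the group means correlated at 0.289 to 0.484 across 8233 genes within a library and at -0.417 to 0.209 between libraries. In each group the deviations of the 3 libraries sum to 0, which lowers the values between libraries by construction. Their contrast with the values within a library is therefore not a test of the pairing. Doublets were scored with Scrublet in scanpy 1.11.5 and left in; an alternative removed the highest scores (0.8% per 1000 barcodes). Other alternatives changed the tool, scaling, filter, block, libraries, matching, depth and cell rules, and 1, without Tnfsf11 cells, was added after the data were seen. Shares carry 95% exact (Clopper-Pearson) intervals; thinning drew UMIs without replacement. Limits for a count of 0 use 3 counts. Some lists, such as interferon-induced and apoptosis genes, are not described, and not every gene of the following plan is printed. Genes to be named were the called genes with 1 sign in all libraries, called genes of the lists, the 2 highest members of each list without a call, Alas2, Nprl3 and the genes of the rule. Others given with values (Wnt4, Zbtb16, Ly6d, Wfdc12, Foxa1, Fos, Hspa8, Alas1, Pcp4, Ang4, Ang5, Defb1 and erythroid genes beside Alas2) were chosen after their values were seen.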

Additional observations from a re-analysis of the deposited data

How the results depend on the processing

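The count of 9 genes became 0 with DESeq2, 0 with no replicate block and 0 among members with at least 2 alpha globin UMIs (462 at an unadjusted p below 0.05). It became 30 with no filter on low counts, 5 with at least 1000 detected genes, 3 with controls not matched in depth, 3 under 5% mitochondrial UMIs, 2 with cells thinned to 1500 UMIs and 3 without Tnfsf11 cells. Leaving out 1 library gave 21 (without library 2) to 92 (without library 3) genes, and 60 without library 1; each such fit has 1 residual degree of freedom per gene and borrows its spread from other genes. With library 1 or 3 left out, 9 and 7 of the 9 genes were called again, and with library 2 left out 4. DESeq2 size factors, the second set of matched cells, removal of likely doublets and the stricter class rule gave 6 to 10 genes, of which the second set of matched cells shared only 4 with the 9. In 131 gene values under 16 alternatives, 0 changed direction and 68 were called. The causes of these changes were not tested, apart from the smaller number of cells or libraries that some alternatives use by construction.

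The mean share of hormone-responsive cells with alpha globin, 21.2%, was 17.1% with cells thinned to 2000 UMIs, 11.4% when at least 2 UMIs were required, 22.9% with the stricter class rule and 23.2% among cells with at least 1000 detected genes. It was 21.1% to 21.3% with 1 library left out. Depth limits both the count of members, since 281 rest on 1 UMI, and the test of rare genes such as Alas2.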

Other observations

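Members that held no Tnfsf11 UMI had higher levels of the angiogenin ribonucleases Ang4 and Ang5, secreted proteins of the ribonuclease A family whose near-identical sequences make their split uncertain. On the scale of CPM without TMM scaling, used throughout here, Ang4 stood at 169, 322 and 313 in these members and at 60.8, 212 and 146 in their matched cells, higher in 3 of 3 libraries (log2 fold change 0.96, edgeR quasi-likelihood test, adjusted p = 0.00151). The comparison was added after the data were seen, its matched cells were drawn again, and no second set of them was tried. With Tnfsf11 cells included, Ang4 stood at 170, 172 and 299.8 CPM in members and 57.9, 283 and 160 in matched cells, lower in library 2 (log2 fold change 0.31, adjusted p = 0.915). Over the steps of alpha globin UMIs (0, 1, 2 to 3, and 4 or more) Ang4 stood at 283, 265, 162 and 81.2 CPM in library 2 and at 160, 253, 249 and 632 in library 3, in opposite directions.

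Libraries also differed in which genes separated members from matched cells. Among genes with at least 60 UMIs, 52 were over 2-fold higher and 36 over 2-fold lower in members of library 2 (4752 genes), against 5 and 5 in library 3 (5224 genes) and 5 and 18 in library 1 (1580 genes). Pcp4, a calmodulin-binding peptide, was the lowest of these in library 2, at 13.7 CPM in members and 77.5 in matched cells, and the highest in library 3, at 198 and 52.4; its UMIs came from 5 and 26 member cells. Defb1, an antimicrobial beta-defensin, stood at 318, 119 and 43.2 CPM in members and 113, 11.7 and 76.8 in matched cells. These differences within single libraries were not tested.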
